A study of Bubalus bubalis with 12 samples.

Results

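Selenoproteins carry selenocysteine, an amino acid that is inserted at a UGA codon that would otherwise stop translation, and most of those with a known activity work in redox chemistry. The 10 genes described here encode the glutathione peroxidases GPX1, GPX2, GPX3 and GPX4, the selenium carrier SELENOP, the small redox proteins SELENOW and MSRB1, and the endoplasmic reticulum (ER) proteins SELENOK, SELENOT and SELENOM. They were taken by gene symbol, with no rule on their values, from the 34037 genes listed for ruminal wall of dairy buffaloes. The choice of genes was made with earlier results of these data known. All 10 were found, and their gene identifiers and symbols matched those of the RefSeq gene table for the species, assembly NDDB_SH_1, in 10 of 10 cases. A total of 9 of the 10 passed the filter on low values and were tested between diets, and GPX2 did not.

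The ruminal wall was taken at slaughter from 12 Italian Mediterranean buffaloes with a mean age of 8.2 years, 6 in each group. Control animals received a total mixed ration (TMR), and treated animals received TMR in which green ryegrass made up 30% of the diet, over a trial of 60 days. By the study's methods the rations were matched in nitrogen and energy, and the treated ration held more forage relative to concentrates. It also lacked the soybean meal, calcium carbonate and vitamins of the control ration, and held less alfalfa hay and corn silage and more fat. Green feed, the forage share and these other differences between the rations cannot be told apart. Each animal gave 1 library of total RNA from frozen ruminal wall tissue, in which the RNA of different cell types was measured together. Replicate numbers follow the sample descriptions, while the sample titles number the same animals differently, so that a shared number marks nothing known to be shared. The libraries held between 10531541 and 12948372 counted fragments, and the group medians were 12414349 for control and 12031597.5 for treated animals. Values are FPKM, in which fragments are divided by gene length and by the animal's total of counted fragments, so that levels of different genes can be set side by side per length. In such bulk samples, fewer cells of a type and less RNA per cell cannot be told apart.

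Selenocysteine is made on its own transfer RNA from selenide, and a stem-loop in the messenger RNA directs its insertion with the help of the protein SECISBP2. When selenium is short, as known from rodents, the messenger RNA of some selenoproteins, GPX1 and SELENOW among them, falls strongly, while that of GPX4 is largely kept. GPX1 reduces hydrogen peroxide in the cytosol with glutathione, GPX2 does so mainly in gastrointestinal epithelium, GPX3 is the secreted plasma form, and GPX4 reduces lipid hydroperoxides within membranes and so prevents ferroptosis. The forestomach epithelium of ruminants is a stratified squamous epithelium in contact with the fermenting content of the rumen. Selenium in the feed, the blood or the tissue was not analysed here.

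Of the selenoprotein genes in the ruminal wall, GPX1 had the highest FPKM in both groups, and protein was not measured. The mean level of GPX1 over the 12 animals was 704 ± 145 FPKM (SD, n = 12), which placed it at rank 119 of all 34037 genes listed. SELENOW followed with 78.7 ± 13.4 FPKM, and SELENOT with 36.3 ± 5.94 FPKM. SELENOP, SELENOK, MSRB1 and GPX4 lay close together at 24.1, 21.5, 20.3 and 18.5 FPKM. GPX3 and SELENOM were low, at 2.20 ± 0.997 and 2.13 ± 0.798 FPKM, and GPX2 was near 0.

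**Figure D1:**
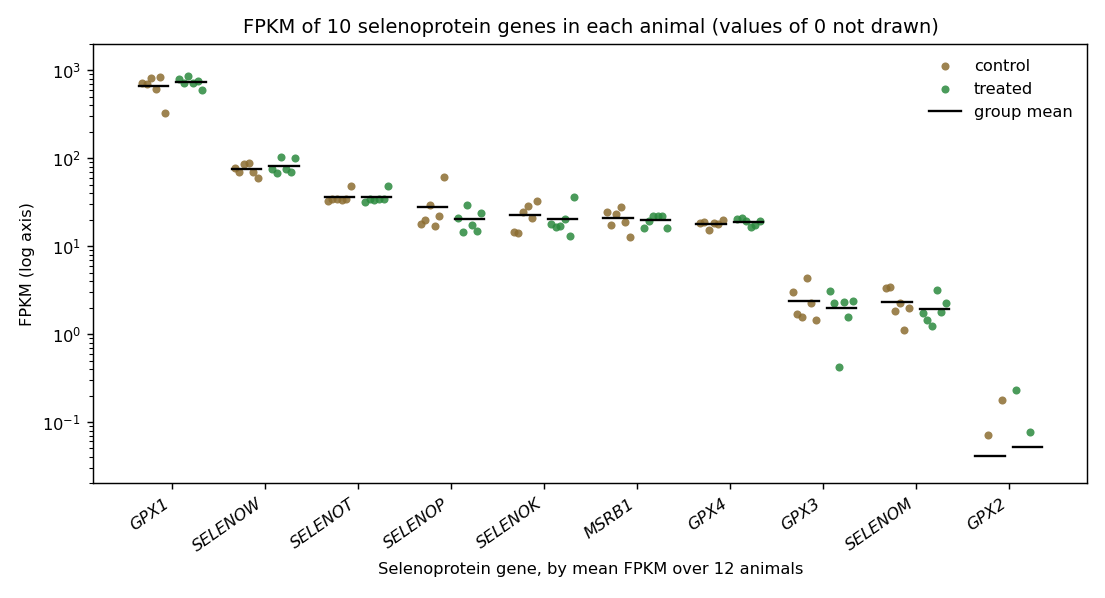
FPKM of the 10 selenoprotein genes on a log axis, with 1 point per animal for 6 control and 6 treated animals and a bar at each group mean; animals listed at 0 are not drawn. GPX1 lies near 704 FPKM, 4 genes lie close together around 20 FPKM, GPX2 has reads in 4 animals, and the points of both groups overlap for every gene.

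The order of these levels was tested between neighbours with two-sided exact paired permutation tests over the 12 animals, adjusted by Benjamini-Hochberg over 9 pairs. GPX1 lay above SELENOW in 12 of 12 animals, with an 8.94-fold ratio of the means (adjusted exact p = 0.0011). SELENOW lay above SELENOT in 12 of 12 animals, 2.17-fold (adjusted exact p = 0.0011), and SELENOT lay above SELENOP in 11 of 12 animals, 1.51-fold (adjusted exact p = 0.0035). The next 3 steps, SELENOP to SELENOK, SELENOK to MSRB1 and MSRB1 to GPX4, were not beyond the spread between animals (adjusted exact p = 0.518, 0.868 and 0.518), and the order was kept in 8, 6 and 7 of 12 animals. SELENOK stood above SELENOP in the means of the treated group. GPX4 lay above GPX3 in 12 of 12 animals, 8.40-fold (adjusted exact p = 0.0011). GPX3 and SELENOM did not differ beyond their spread, with GPX3 higher in 5 of 12 animals (adjusted exact p = 0.868), and SELENOM lay above GPX2 in 12 of 12 animals.

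GPX1 made up most of the summed FPKM of the 10 genes. Its share was between 57.5% and 81.8%, with a median of 79.2%, and both the lowest share, in control replicate 6, and the highest share fell in the control group. Among 25 known selenoprotein genes, which include 15 others besides these 10, its share of the sum was between 35.7% and 60.3%. The ratio of GPX1 to GPX4, the cytosolic against the membrane-protecting peroxidase, was between 16.6-fold and 54.0-fold over the animals, with a median of 39.4-fold.

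The place of the 10 genes among the 25 was uneven. Between GPX1 and SELENOW stood SELENOH, a nucleolar redox protein, with 158 ± 23.1 FPKM (SD, n = 12), and SELENOF, an ER protein of glycoprotein quality control, with 104 ± 12.5 FPKM. TXNRD1, the cytosolic thioredoxin reductase, had 39.9 ± 8.06 FPKM, close to SELENOT. SEPHS2, the selenophosphate synthetase that is itself a selenoprotein, had 30.1 ± 4.64 FPKM. DIO3, SELENOV and GPX6 were listed at 0 in every animal, and DIO1 and DIO2, deiodinases of thyroid hormone, had mean levels of 0.113 and 0.0181 FPKM.

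**Figure D2:**
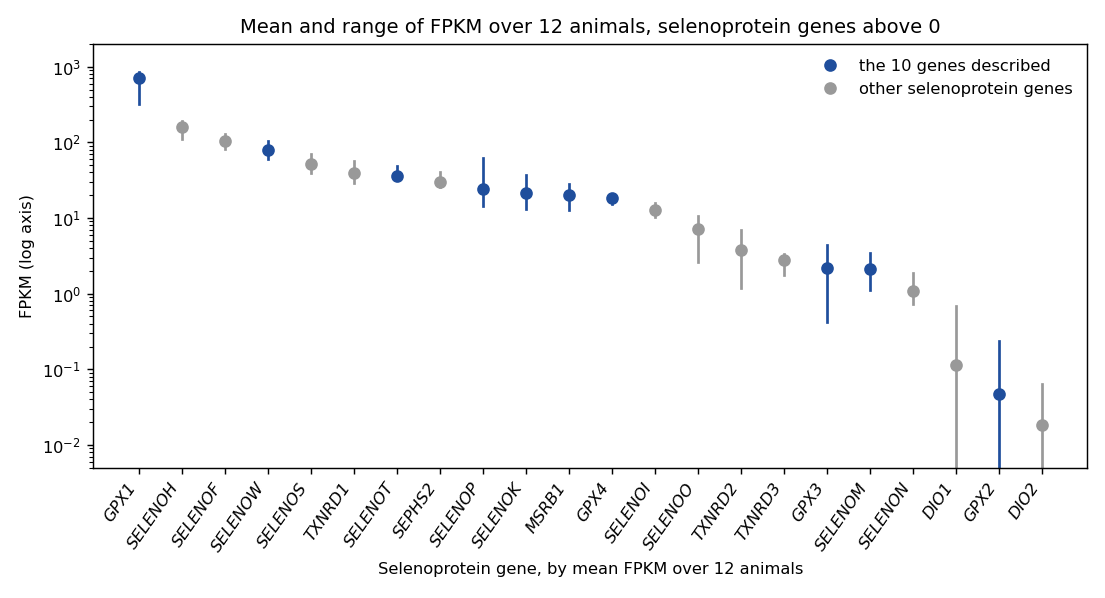
Mean (point) and range from the lowest to the highest animal (line) of FPKM over 12 animals, on a log axis, for the 22 of 25 selenoprotein genes above 0; lines that reach the lower edge go down to 0. GPX1 with 704 FPKM stands above SELENOH with 158 FPKM, and GPX3, SELENOM and GPX2 lie at the low end.

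The comparison of diets asked whether green feed goes with a changed expression of genes in the ruminal wall. It was made with limma on log2(FPKM + 0.01) over the 16450 genes that reached 0.1 FPKM in 6 or more of the animals, and each gene described was also given a two-sided exact permutation test over the 924 assignments of the animals, for which the smallest possible p is 0.00216. Over all genes tested, 301 (1.83%) had a nominal limma p below 0.05, the threshold used in the study, with 168 higher and 133 lower in the treated group. Without treated replicate 6 this count was 465. After Benjamini-Hochberg adjustment 0 genes (0%) passed, and the smallest adjusted limma p was 0.99957. The exact permutation p was below 0.05 for 360 genes (2.19%), and the groups did not overlap for 11 genes (0.0669%).

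None of the 9 selenoprotein genes tested passed a threshold between the diets. By nominal limma p, by exact permutation p and by groups that do not overlap, the count was 0 of 9 each time, beside the shares over all genes just given. The log2 fold changes of treated against control ran from -0.36 to 0.20, with 3 above and 6 below 0 and a median of -0.045, while the median of all genes tested was 0.0016. The lowest limma p among the 9 was 0.240 and the lowest exact permutation p was 0.318, both for SELENOP. A p above the threshold does not show that levels were equal, and the intervals of each gene say how large a difference remained possible.

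**Figure D3:**
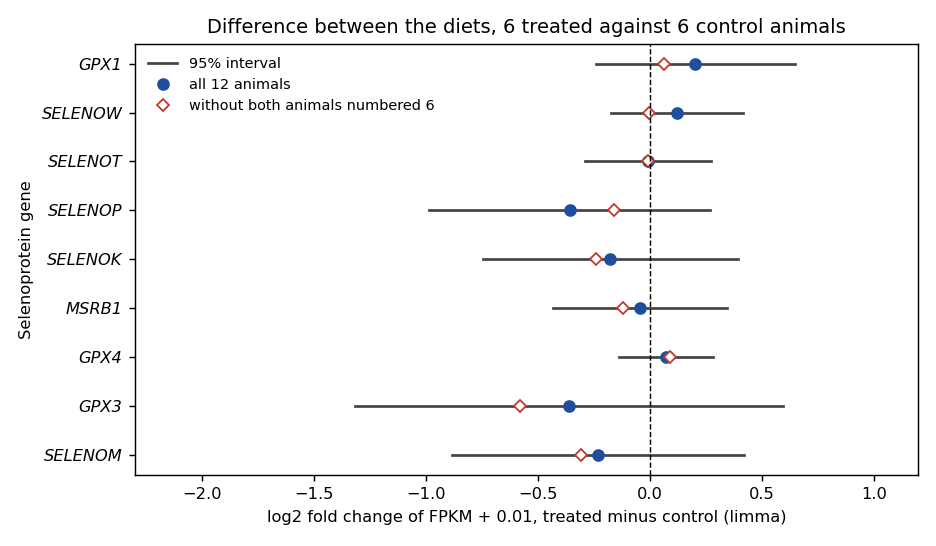
Log2 fold change of FPKM + 0.01 between 6 treated and 6 control animals for the 9 selenoprotein genes tested (filled points), with 95% intervals from limma (lines) and the value without both animals numbered 6 (open diamonds). All 9 intervals include 0, and they are narrowest for GPX4 and widest for GPX3.

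Among the glutathione peroxidases, GPX1 ranged from 325 through a median of 706 to 841 FPKM in control animals and from 602 through 734 to 862 FPKM in treated animals. The lowest value belonged to control replicate 6, with the next lowest control animal at 611 FPKM, and otherwise the groups covered nearly the same range. The group means were 668 ± 188 and 740 ± 86.9 FPKM (SD, n = 6 each). The log2 fold change was 0.20 ± 0.21 (SE), with a 95% interval of -0.24 to 0.65, that is from 0.846-fold to 1.57-fold (exact permutation p = 0.463). Without control replicate 6 it was 0.0071. Between 3024 and 9373 reads stood behind each value, so that counting error was small.

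GPX4 was the steadiest of the genes described. Control animals had 15.2, 18.4 and 19.6 FPKM as lowest, median and highest value, and treated animals 16.6, 19.4 and 20.8 FPKM. The means were 18.0 ± 1.52 and 18.95 ± 1.60 FPKM (SD, n = 6 each), and the log2 fold change was 0.07 ± 0.097 (SE; 95% interval -0.14 to 0.28; exact permutation p = 0.353). A difference from 0.910-fold to 1.22-fold was therefore left possible by the interval, the narrowest of the 9. When a stromal score, the mean standardized level of the muscle and fibroblast markers, entered the fit as a covariate, the log2 fold change was -0.02.

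GPX3 was low and variable. Its values were 1.45, 1.99 and 4.35 FPKM as lowest, median and highest control animal and 0.422, 2.29 and 3.08 FPKM in the treated group. The lowest, treated replicate 3, rested on 8 reads, and the highest of the 12 animals, control replicate 4, on 87 reads, which is 10.3-fold higher in FPKM. The treated group had the higher median and the lower mean (2.40 ± 1.12 against 2.00 ± 0.913 FPKM, control and treated, SD, n = 6 each). Its log2 fold change was -0.36 ± 0.44 (SE; 95% interval -1.32 to 0.60; exact permutation p = 0.563), and 0.04 without treated replicate 3.

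GPX2, the gastrointestinal form, was hardly detected. It had 7 reads over all 12 animals, which fell on 4 animals with 1 and 2 reads in control replicates 3 and 6 and 3 and 1 reads in treated replicates 1 and 4. The highest values were 0.177 FPKM in the control and 0.233 FPKM in the treated group, and 8 animals were at 0. No animal was above the floor of 3 reads, the number that a count of 0 still allows by counting error alone, and no fold was computed.

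SELENOP, secreted mainly by the liver and taken up by tissues through receptors of the LDL receptor family, had a spread that rested largely on 1 animal. Control animals had 17.2, 21.1 and 61.9 FPKM as lowest, median and highest value, and treated animals 14.6, 19.1 and 29.1 FPKM. The highest was control replicate 6, while the next control animal had 29.2 FPKM, close to the highest treated animal. Means were 28.1 ± 17.1 and 20.2 ± 5.67 FPKM (SD, n = 6 each), and the log2 fold change was -0.36 ± 0.29 (SE; 95% interval -0.99 to 0.27; exact permutation p = 0.318). Without control replicate 6 it was -0.10.

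SELENOW, a small thioredoxin-like protein, had 60.1, 73.8 and 88.1 FPKM as lowest, median and highest control animal and 67.5, 76.1 and 104 FPKM in the treated group. Treated replicates 3 and 6 stood above every control animal, at 104 and 100.4 FPKM, and the other 4 lay within the control range. Means were 75.2 ± 10.7 and 82.2 ± 15.8 FPKM (SD, n = 6 each), with a log2 fold change of 0.12 ± 0.14 (SE; 95% interval -0.18 to 0.41; exact permutation p = 0.422). It was -0.0048 without both animals numbered 6.

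MSRB1, the selenoprotein that reduces methionine-R-sulfoxide, ranged from 12.7 through 21.0 to 27.8 FPKM in control animals and from 16.1 through 20.8 to 22.3 FPKM in treated animals. The treated range lay inside the control range. Means were 20.8 ± 5.52 and 19.7 ± 2.96 FPKM (SD, n = 6 each). The log2 fold change was -0.045 ± 0.18 (SE; 95% interval -0.43 to 0.34; exact permutation p = 0.820), and its sign changed when control replicate 1 or 4 or treated replicate 1 or 6 was left out, to at most 0.05.

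Of the ER selenoproteins, SELENOK binds to the machinery that exports misfolded proteins for degradation and takes part in protein palmitoylation. Its values were 14.0, 22.8 and 33.1 FPKM as lowest, median and highest control animal and 13.1, 17.4 and 36.7 FPKM in the treated group. Treated replicate 6 was the highest of all animals, and 1 of 6 treated animals lay above the control median. The means were 22.7 ± 7.71 and 20.2 ± 8.41 FPKM (SD, n = 6 each), with a log2 fold change of -0.18 ± 0.26 (SE; 95% interval -0.75 to 0.39; exact permutation p = 0.552). With 1 animal left out it ran from -0.37 without treated replicate 6 to -0.05 without control replicate 6, and it was also closer to 0 without control replicate 4 (-0.09) and treated replicate 5 (-0.07), and further from 0 without control replicate 1 (-0.29) or 2 (-0.30).

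SELENOT, a thioredoxin-like protein of the ER membrane, showed the most regular pattern apart from 2 animals. Control replicate 6 and treated replicate 6 both had 48.9 FPKM, and the other 10 animals lay between 31.8 and 34.7 FPKM. The medians were 34.1 and 34.4 FPKM and the means 36.4 ± 6.15 and 36.2 ± 6.30 FPKM in the control and treated groups (SD, n = 6 each). The log2 fold change was -0.0086 ± 0.13 (SE; 95% interval -0.29 to 0.27; exact permutation p = 0.853). It was 0.08 without control replicate 6 and -0.10 without treated replicate 6, and leaving out any other treated animal also gave a value above 0.

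SELENOM, a thioredoxin-like protein of the ER lumen, was low. Control animals had 1.11, 2.12 and 3.43 FPKM as lowest, median and highest value, and treated animals 1.24, 1.77 and 3.18 FPKM. These values rested on 11 to 34 reads per animal. Means were 2.33 ± 0.908 and 1.94 ± 0.698 FPKM (SD, n = 6 each), and the log2 fold change was -0.23 ± 0.30 (SE; 95% interval -0.88 to 0.42; exact permutation p = 0.474). It was -0.10 without control replicate 2, -0.42 without control replicate 5 and -0.07 with the stromal score as a covariate.

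The spread between animals differed widely among the genes. The coefficient of variation of FPKM over the 12 animals was 8.48% for GPX4, where the counting of reads alone would give 6.42%. For SELENOM it was 37.4% against 21.9% from counting, and for GPX3 45.3% against 15.4%. SELENOP reached 53.3%, where counting would give 3.95%, and GPX1 20.6% against 1.15%. Without control replicate 6, SELENOP had 24.6% and GPX1 11.6%, while GPX3 had 44.8%. On the log2 scale the SD within groups of GPX4, 0.126, was higher than that of 1.63% of all genes tested, while that of GPX3, 0.848, was higher than that of 78.3%. The median of all genes was 0.447.

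**Figure D4:**
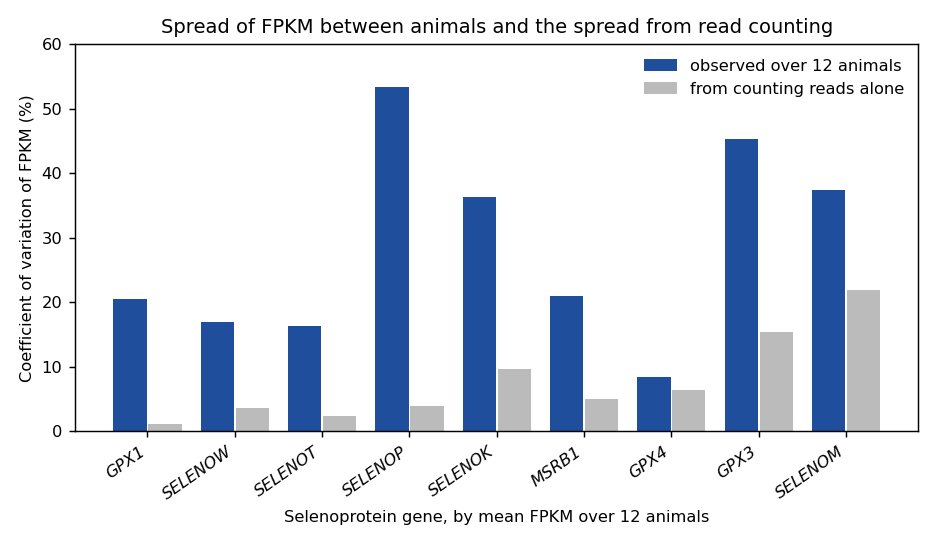
Coefficient of variation of FPKM over 12 animals (dark bars, %) beside the value that counting of reads alone would give, the inverse square root of the mean number of reads (light bars, %), for the 9 genes tested. GPX4 with 8.48% lies close to its counting error of 6.42%, and SELENOP with 53.3%, or 24.6% without control replicate 6, lies furthest above its own over all 12 animals.

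For several of the genes this spread fell largely on 1 animal of each group, control replicate 6 and treated replicate 6, which share their number in the sample descriptions and not in the titles. In each group replicate 6 had the lowest GPX1 and MSRB1 and the highest SELENOK and SELENOT. The libraries of treated replicate 6 and control replicate 6 also had the lowest mean correlation with the other animals over all genes tested, 0.881 and 0.886, where the other 10 libraries had 0.897 to 0.912, and control replicate 6 had the fewest fragments. Without both, the SD of SELENOT within groups fell from 0.221 to 0.0415 on the log2 scale, that of GPX1 from 0.379 to 0.155 and that of SELENOP from 0.565 to 0.361. That of GPX4 was 0.126 with and 0.131 without them, and that of GPX3 was 0.848 and 0.899. The count of selenoprotein genes past the nominal threshold was 0 without them too. The part of these libraries in the spread of each gene beyond these values was not tested.

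**Figure D5:**
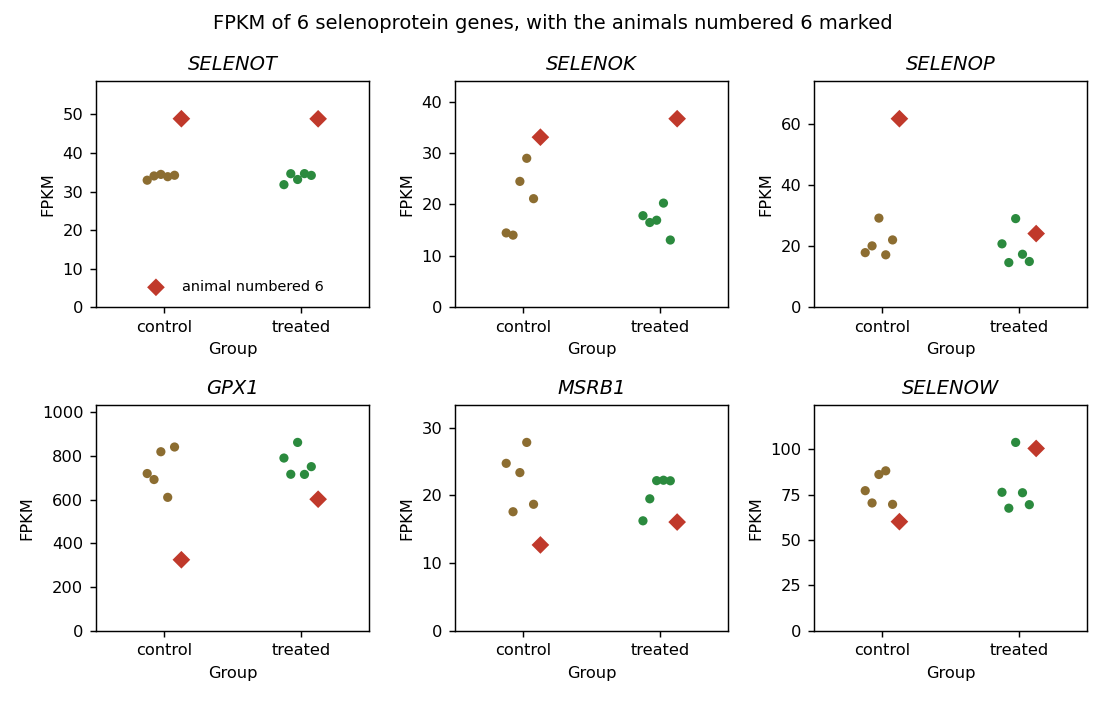
FPKM of SELENOT, SELENOK, SELENOP, GPX1, MSRB1 and SELENOW in 6 control and 6 treated animals, with control replicate 6 and treated replicate 6 drawn as red diamonds. SELENOT of both lies at 48.9 FPKM above the 31.8 to 34.7 FPKM of the other 10 animals, and GPX1 and MSRB1 of both are the lowest of their group.

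Pairs of the 9 genes were set against each other over the 12 animals on the log2 scale, 36 pairs in all. None passed the adjusted threshold by permutation with 100000 resamples, and 7 had an unadjusted p below 0.05 by Pearson's r and 2 by Spearman's rho. SELENOK and SELENOT had r = 0.75 (permutation p = 0.00474, adjusted p = 0.120) and rho = 0.52 (permutation p = 0.0902, adjusted p = 0.671). Without the 2 animals farthest from the median, which were both animals numbered 6, r was 0.18, so that the relation rested on those animals, and within the groups it was 0.63 in control and 0.88 in treated animals. GPX1 and SELENOT had r = -0.79 (permutation p = 0.00665, adjusted p = 0.120) and rho = -0.51 (permutation p = 0.0932, adjusted p = 0.671), with r = -0.92 within control and -0.88 within treated animals. It was -0.57 without control replicate 6 and treated replicate 3, the farthest from the median of GPX1, and -0.20 without both animals numbered 6, so that it rested mainly on the latter.

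Most epithelial markers were high in the sampled tissue, and muscle markers were low. KRT5, a keratin of basal squamous epithelium, had means of 1436 and 1550 FPKM in control and treated animals, and KRT4, a keratin of other squamous epithelia, had 0.622 and 0.366 FPKM, while the smooth muscle myosin MYH11 had 2.57 and 1.45 FPKM. All 8 smooth muscle markers and all 7 fibroblast markers had log2 fold changes below 0, with medians of -0.84 and -0.73, and among them 3 smooth muscle genes, ACTG2, CNN1 and DES, passed the nominal threshold and 0 the adjusted one. DES had an exact permutation p of 0.0519, and its limma p was 0.0696 without treated replicate 1, while that of ACTG2 was 0.0533 without control replicate 1. For CNN1 and ACTG2 the lowest treated animal was at 0 reads, so that their log2 fold changes of -3.06 and -2.21 lean on the pseudocount. The log2 ratios of their means were -1.55 and -1.47. DES and MYH11 are among the genes that the study picked on these samples, so that the direction of this list is not independent evidence. None of these markers was at 0 in every animal. The summed FPKM of the muscle list ran from 14.2 to 34.1 in control and from 4.98 to 25.4 in treated animals, and that of the fibroblast list from 46.0 to 278 and from 19.1 to 174. The 9 epithelial markers found had a median log2 fold change of 0.07, with 0 past the nominal threshold and sums of 2791 to 4568 and 2653 to 5323 FPKM. The markers of macrophages, T cells, endothelium, B and plasma cells and erythrocytes had 0 nominal calls among 6, 5, 5, 2 and 1 genes tested.

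The selenoprotein genes were set against the mean standardized level of these lists. Of 27 relations with the epithelial, smooth muscle and fibroblast scores, 0 passed the adjusted threshold and 4 had an unadjusted permutation p below 0.05. GPX4 was lower where the smooth muscle score was higher, with r = -0.65 (permutation p = 0.0197, adjusted p = 0.168) and rho = -0.59 (permutation p = 0.0487, adjusted p = 0.267). Within the groups this r was -0.14 in control and -0.94 in treated animals, and without treated replicates 1 and 2, the farthest from the median of the score, it was -0.41. SELENOT had r = -0.66 with the epithelial score (permutation p = 0.0249, adjusted p = 0.168; rho = -0.59, permutation p = 0.0480, adjusted p = 0.267), -0.67 within control and -0.68 within treated animals, and -0.54 without control replicate 6 and treated replicate 1. SELENOK had r = -0.64 with the same score (permutation p = 0.0237, adjusted p = 0.168; rho = -0.66, permutation p = 0.0224, adjusted p = 0.267), with -0.76 within control and -0.55 within treated animals, and -0.67 without those 2 animals. The last of the 4 was GPX4 with the fibroblast score, with r = -0.65 (permutation p = 0.0230, adjusted p = 0.168; rho = -0.57, permutation p = 0.0594, adjusted p = 0.267), -0.48 within control and -0.72 within treated animals, and -0.48 without treated replicates 1 and 2. Without both animals numbered 6, r with the epithelial score was -0.52 for SELENOT and -0.37 for SELENOK. For GPX4 it was then -0.77 with the smooth muscle score and -0.90 with the fibroblast score. The part of tissue composition in the levels of these genes was not tested beyond the fit with the stromal score as a covariate. In that fit 0 of 9 genes passed the nominal threshold.

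Of the 15 other selenoproteins, 10 were tested and 0 passed the nominal threshold, with a median log2 fold change of 0.03. SELENOH, the highest, had 154 ± 26.8 and 163 ± 20.1 FPKM in control and treated animals (SD, n = 6 each). TXNRD1 had 40.4 ± 6.84 and 39.3 ± 9.76 FPKM. The largest difference belonged to SELENON, an ER protein known from muscle, with a log2 fold change of 0.26 ± 0.25 (SE) at 0.955 ± 0.151 and 1.19 ± 0.415 FPKM.

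The genes that make selenocysteine and insert it showed no called difference either. All 15 found were tested, 0 passed the nominal threshold, and their median log2 fold change was -0.02. SECISBP2, which binds the stem-loop, had 11.6 ± 0.843 and 11.6 ± 1.35 FPKM, and SEPHS2 30.1 ± 5.31 and 30.0 ± 4.39 FPKM (control and treated, SD, n = 6 each). RPL30, a ribosomal protein that also binds the stem-loop, was the highest of the list with 1334 ± 231 and 1344 ± 390 FPKM. PSTK, the kinase that acts on the charged transfer RNA, had the largest difference, a log2 fold change of -0.19 ± 0.24 (SE).

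Among the lists of related genes, the largest log2 fold change was that of a gene of selenium binding. SELENBP1, a selenium-binding protein without selenocysteine that oxidizes methanethiol, had 346, 719 and 878 FPKM as lowest, median and highest control animal and 185, 306 and 752 FPKM in the treated group. The ranges overlapped, and the means were 685 ± 191 and 373 ± 219 FPKM (SD, n = 6 each). The log2 fold change was -1.005 ± 0.34 (SE), with a nominal limma p of 0.0107 and an exact permutation p of 0.0281, and it did not pass adjustment over all genes (limma, Benjamini-Hochberg adjusted p = 0.99957). The highest nominal limma p of SELENBP1 when 1 animal was left out was 0.0272, without treated replicate 4. In the fit that included the stromal score its nominal limma p was 0.00288. The study picked SELENBP1 on these samples, where EdgeR, NOISeq and rt-qPCR all gave lower levels in treated animals. Its direction here is therefore not independent evidence.

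Of the 8 genes of that list, 6 were tested and SELENBP1 was the 1 that passed the nominal threshold, with a median log2 fold change of 0.05 over the list. SCLY, which frees selenium from selenocysteine, had 3.88 ± 1.29 and 4.40 ± 0.987 FPKM in control and treated animals (SD, n = 6 each). LRP8, a receptor for SELENOP, had 0.312 ± 0.0951 and 0.418 ± 0.174 FPKM, with a log2 fold change of 0.36 ± 0.36 (SE). LRP2, a further receptor for SELENOP that the study also picked on these samples, failed the filter and had at most 52 reads in a control and 8 reads in a treated animal, with means of 0.123 ± 0.129 and 0.0135 ± 0.021 FPKM. INMT, which methylates small amines and selenium compounds, was listed at 0 in every animal.

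Genes of antioxidant enzymes that work without selenium, among them cysteine relatives of the selenoproteins, catalase and the superoxide dismutases, had partly far higher FPKM. PRDX6, a peroxiredoxin that reduces phospholipid hydroperoxides, had 4367 ± 958 and 3842 ± 457 FPKM in control and treated animals (SD, n = 6 each), above GPX1. Of 17 genes tested, 1 passed the nominal threshold. It was PRDX4, the peroxiredoxin of the ER, with 64.1 ± 5.97 and 53.2 ± 11.1 FPKM, a log2 fold change of -0.29 ± 0.13 (SE), a limma p of 0.0455 and an exact permutation p of 0.0563. Its limma p was 0.256 with the stromal score as a covariate and up to 0.104 with 1 animal left out, which was treated replicate 1. With the stromal score as a covariate, 3 other genes of the list had a nominal limma p below 0.05, PRDX5 (0.00397), PRDX3 (0.0296) and CAT (0.0372). That fit called 496 of all 16450 genes tested. In the main fit the log2 fold changes of PRDX5, PRDX3 and CAT were 0.24, 0.14 and 0.14, and none of them was called. The largest log2 fold change was that of GPX8, a peroxidase of the ER membrane, with -0.63 ± 1.04 (SE), which rests on the pseudocount, since a treated animal was at 0 reads and the means were 0.481 ± 0.429 and 0.463 ± 0.482 FPKM, a log2 ratio of -0.06. The median log2 fold change of the list was -0.06.

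In the supply of glutathione, the substrate of the peroxidases, 1 of 10 genes tested passed the nominal threshold. GSS, the glutathione synthetase, had 38.0, 45.4 and 51.5 FPKM as lowest, median and highest control animal and 46.4, 52.4 and 57.0 FPKM in the treated group. The log2 fold change was 0.22 ± 0.093 (SE; limma p = 0.0350; exact permutation p = 0.0173), and without control replicate 1 the limma p was 0.0905. The list had a median of -0.02. GLRX, a glutaredoxin, was its highest gene with 360 ± 78.3 and 307 ± 87.2 FPKM, and GGT5 had the largest difference with a log2 fold change of 0.28 ± 0.32 (SE).

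The partners of the ER selenoproteins and the genes of ferroptosis had 0 nominal calls among 15 and 14 genes tested, with median log2 fold changes of -0.08 and -0.13. VCP, the ATPase that pulls proteins out of the ER and binds the complex of SELENOK and SELENOS, was the highest of the partners with 118 ± 10.7 and 110 ± 11.8 FPKM in control and treated animals (SD, n = 6 each), and its limma p was 0.0379 with the stromal score as a covariate. UGGT2, a glucosyltransferase of glycoprotein folding, had the largest log2 fold change with -0.77 ± 0.87 (SE) at 0.127 ± 0.0768 and 0.0929 ± 0.0858 FPKM, where a treated animal was at 0 reads and the log2 ratio of the means was -0.45. FTH1, the ferritin heavy chain that stores iron, had 683 ± 131 and 631 ± 148 FPKM, and HMOX1, which breaks down haem, had the largest difference of the ferroptosis list with -0.41 ± 0.29 (SE).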

How the data were processed

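Total RNA of 12 ruminal walls was sequenced as stranded libraries. Per the labels and methods, the authors used Trimmomatic 0.39 for trimming, STAR 2.5.2b for alignment to the genome UOA_WB_1 and featureCounts 2.0.0 for counting by gene and strand. What the authors deposited is FPKM, in which each count is divided by the gene's length and the library's counted fragments. Of 16 columns, 4 matched no sample label and were not used. Groups and replicate numbers came from the labels.

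For each gene, the FPKM of all animals gave whole numbers of reads once the value of 1 read was found. This held in all 22972 genes above 0 and gave the depth. The tolerance was a distance of 1e-05 from a whole number, which a gene with reads in only 1 animal meets by construction. No count model was the main test. Genes that reached 0.1 FPKM in 6 or more animals were tested with limma 3.58.1 in R 4.3.3 (lmFit, eBayes with trend) on log2(FPKM + 0.01), with Benjamini-Hochberg adjustment. On this scale an animal at 0 reads can enlarge or turn the fold change of a low gene. Single genes had two-sided exact permutation tests. Intervals and floors from reads cover counting error only. Python 3.11.15, numpy 2.4.6, scipy 1.17.1, pandas 2.3.3 and matplotlib 3.10.9 were used. The fit was also run on simulated data with independent noise and no outlying libraries, and no result here rests on that run.

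The members, gene lists and tests were chosen with earlier results of these data known. Named were all 10 members and, per list, the genes with a nominal p below 0.05, the highest mean and the largest change, as well as TXNRD1, SEPHS2, SECISBP2, SCLY, LRP8, LRP2 and SELENBP1. The marker lists did not follow this rule, and of their genes only KRT5, KRT4, MYH11, ACTG2, CNN1 and DES were named. MYH11, KRT4, PRDX3, PRDX5, CAT and TFRC were named after their values were seen. Alternatives were pseudocounts of 0.1 and 1 FPKM, no filter, a filter of 1 FPKM, median-ratio scaling, robust empirical Bayes, a rank-sum test, the replicate number as a block, a stromal score as a covariate, voom on the worked-out reads and each animal left out. Leaving out both animals numbered 6 was chosen after seeing the data. Sequences and coordinates were not used here.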

Additional observations from a re-analysis of the deposited data

Results flagged for a closer look

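In 4 of 18 groups of 6 animals checked, the highest animal stood further from the others than Dixon's 95% limit for the gap over the range, and chance would flag about 1 in 20 groups. SELENOT of control replicate 6 was 48.9 FPKM (gap over range 0.906), and SELENOT of treated replicate 6 was 48.9 FPKM (0.833), while the next animals had 34.4 and 34.7 FPKM. SELENOP of control replicate 6 was 61.9 FPKM (0.730), with the next control animal at 29.2 FPKM. SELENOK of treated replicate 6 was 36.7 FPKM (0.696), with the next treated animal at 20.3 FPKM. All 4 values belong to the 2 libraries with the lowest mean correlation with the other animals. A cause was not tested.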

How the results depend on the processing

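The count of selenoprotein genes past the nominal threshold was 0 in every alternative run, and the adjusted count over all genes was 0 in each, rank-sum test and voom included. The nominal count of all genes, 301 in the main comparison, was 562 with no filter, 151 with the filter of 1 FPKM, 496 with the stromal score as a covariate and 283 to 465 with each animal left out. With the replicate block it was 464, no selenoprotein gene was called, and TFRC of the ferroptosis list had a limma p of 0.0347. The deviations of same-numbered animals had a mean correlation of 0.0925, against -0.018 for other pairs, and 6 of 12 animals correlated best with their own number. The labels give no pairing, and whether one exists was not tested. Since 3 of 6 pairs were over 0.1, and not all, the numbers were not taken as pairing.

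The sign of some log2 fold changes turned, none past a threshold. GPX3 was 0.22 as a difference of medians (rank-sum test) and -0.530 to 0.0374 with each animal left out. SELENOT was 0.0117 by medians, 0.0735 with the stromal score and -0.0983 to 0.0795 with each animal left out. MSRB1 was 0.0103 with the score and -0.179 to 0.0480 with each animal left out, GPX4 was -0.0169 with the score, and SELENOW was -0.0048 without both animals numbered 6. Under median-ratio scaling 1 of 36 pairs passed the adjusted threshold, SELENOK with SELENOT (adjusted permutation p = 0.0234). The causes were not tested. Depth limits GPX2 and SELENOM.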
